A study of Mus musculus with 36 samples.

Results

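Cytosolic ribosomal protein genes encode the proteins of the ribosome that translates nuclear mRNAs. They were picked from the deposited RPKM table by name: protein coding rows called Rpl, Rps or Rplp followed by a number, without the Rps6k kinases, whose RPKM averaged 0.5 or more across the 36 libraries. The rule took 84 of the 31554 genes in the table. Of the 86 names that matched, Rpl3l averaged 0.198 RPKM and Rpl39l 0.0602 RPKM and fell below the minimum, while the lowest genes above it were Rps3a3 at 3.07 RPKM and Rps3a2 at 5.23 RPKM. The libraries came from adult male C57BL/6 mice, 2.5 months after spared nerve injury (SNI) or sham surgery of the sciatic nerve. SNI cuts some branches of the nerve and spares another, and is used to model neuropathic pain. There were 6 libraries in each of 6 groups: SNI and sham in the periaqueductal grey (PAG), a midbrain region of descending pain control; SNI and sham in the nucleus accumbens (NAc), part of the ventral striatum; and SNI and sham in the prefrontal cortex (PFC). Every library was poly-A selected bulk RNA, so fewer cells of a type and less RNA per cell cannot be told apart. The labels speak of pooled RNA and do not say which mice stand behind a library, so p-values measure the spread between libraries, which may be technical.

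Each cytosolic ribosome has a small subunit, which reads the mRNA, and a large subunit, which forms the peptide bonds, and their proteins are needed in nearly matched amounts. Most mRNAs of these genes begin with a run of pyrimidines at the 5′ end, the TOP tract, through which the TOR kinase and the protein Larp1 control their translation. In neurons, TOR signalling and local translation in axons and dendrites have been studied in relation to plasticity and persistent pain.

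The names held some genes that are not ribosomal proteins of the ordinary set. The row named Rpl24 carries an identifier that GENCODE M21 assigns to Zbtb11, a zinc finger gene, and Rps19bp1 encodes a protein that binds Rps19. Rpl7l1, Rpl22l1, Rpl36al and Rps27l are paralogs, and Rps4y2, Rps3a2 and Rps3a3 are further copies, with no protein coding transcript of their own in GENCODE M21. Without these 9 rows there were 75 genes, 45 of the large subunit, its P stalk included, and 30 of the small subunit, a division made after values had been seen. All 84 passed the filter on low values in each region. Reads could be shared with processed pseudogenes: the table has 198 pseudogene rows with such names, of which 45 reached the minimum, and they held 0.0110% to 0.0181% of a library's reads, against 0.576% to 0.872% in the 84 genes.

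Depth ran from 27.6 to 64.9 M reads per library. Markers matched the labelled regions: Slc17a7 and Neurod6, of cortical glutamatergic neurons, summed to 474 to 602 RPKM in PFC SNI and 504 to 553 RPKM in PFC sham libraries, and Slc17a6, Tph2 and Gata3 to 166 to 279 RPKM in PAG SNI and 250 to 303 RPKM in PAG sham libraries. Drd2 and Ppp1r1b, of medium spiny neurons, summed to 262 to 391 RPKM in NAc SNI and 253 to 357 RPKM in NAc sham libraries. Some NAc libraries also held the cortical pair, whose sum ran from 2.63 to 189 RPKM in NAc SNI and from 1.74 to 146 RPKM in NAc sham libraries. Libraries also differed in GC slope, the change in a library's log2 values, relative to its region's mean, per 10% more GC in a gene's longest transcript. In PAG the 2 surgeries did not overlap on it: the slopes were 0.0359 to 0.218 in SNI libraries and -0.217 to -0.0246 in sham libraries. In NAc they were -0.200 to 0.152 in SNI and -0.185 to 0.0568 in sham libraries, and in PFC -0.241 to 0.124 in SNI and -0.262 to 0.117 in sham libraries, overlapping in both regions.

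In PAG, SNI libraries held more mRNA of 33 of the 84 genes and less of 12, and 39 did not pass an adjusted p of 0.05 (limma on log2(RPKM + 0.5), Benjamini-Hochberg over the 15592 genes tested). Over all genes tested, 21.5% were higher and 13.7% were lower, so the share of ribosomal protein genes that rose, 39.3%, was above that background and the share that fell, 14.3%, was near it. That background includes genes of lower level than any in the set. With a minimum of 2 RPKM, 24.8% of 11816 genes were higher and 18.7% were lower. The rises were led by Rpl36, Rps29 and Rplp1. Of the 84 genes, 9 rose by at least 1.5-fold, against 2.53% of all genes, and in 27 every SNI library lay above every sham library, against 13.3% of all genes. In no gene of the set did every SNI library lie below every sham library, against 3.63% of all genes. The median log2 fold change was 0.064 over the 84 genes and -0.019 over all genes, and single genes ran from -0.20 to 2.13. Leaving out single libraries moved the median of the 84 genes between 0.028, without PAG SNI 33, and 0.079, without PAG SNI 36. All 3 genes of the P stalk rose, together with 16 of the other 42 large-subunit genes, of which 5 fell, and 12 of the 30 small-subunit genes, of which 5 fell. The whole set took 0.745% to 0.872% of reads in PAG SNI libraries (median 0.784%) and 0.730% to 0.783% in PAG sham libraries (median 0.761%), with overlap between the surgeries. Scaling moved the split between rises and falls, which was 33 and 19 with median-of-ratios scaling (20.9% and 16.5% of all genes) and 35 and 25 with quantile scaling (18.8% and 25.8% of all genes).

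**Figure D1:**
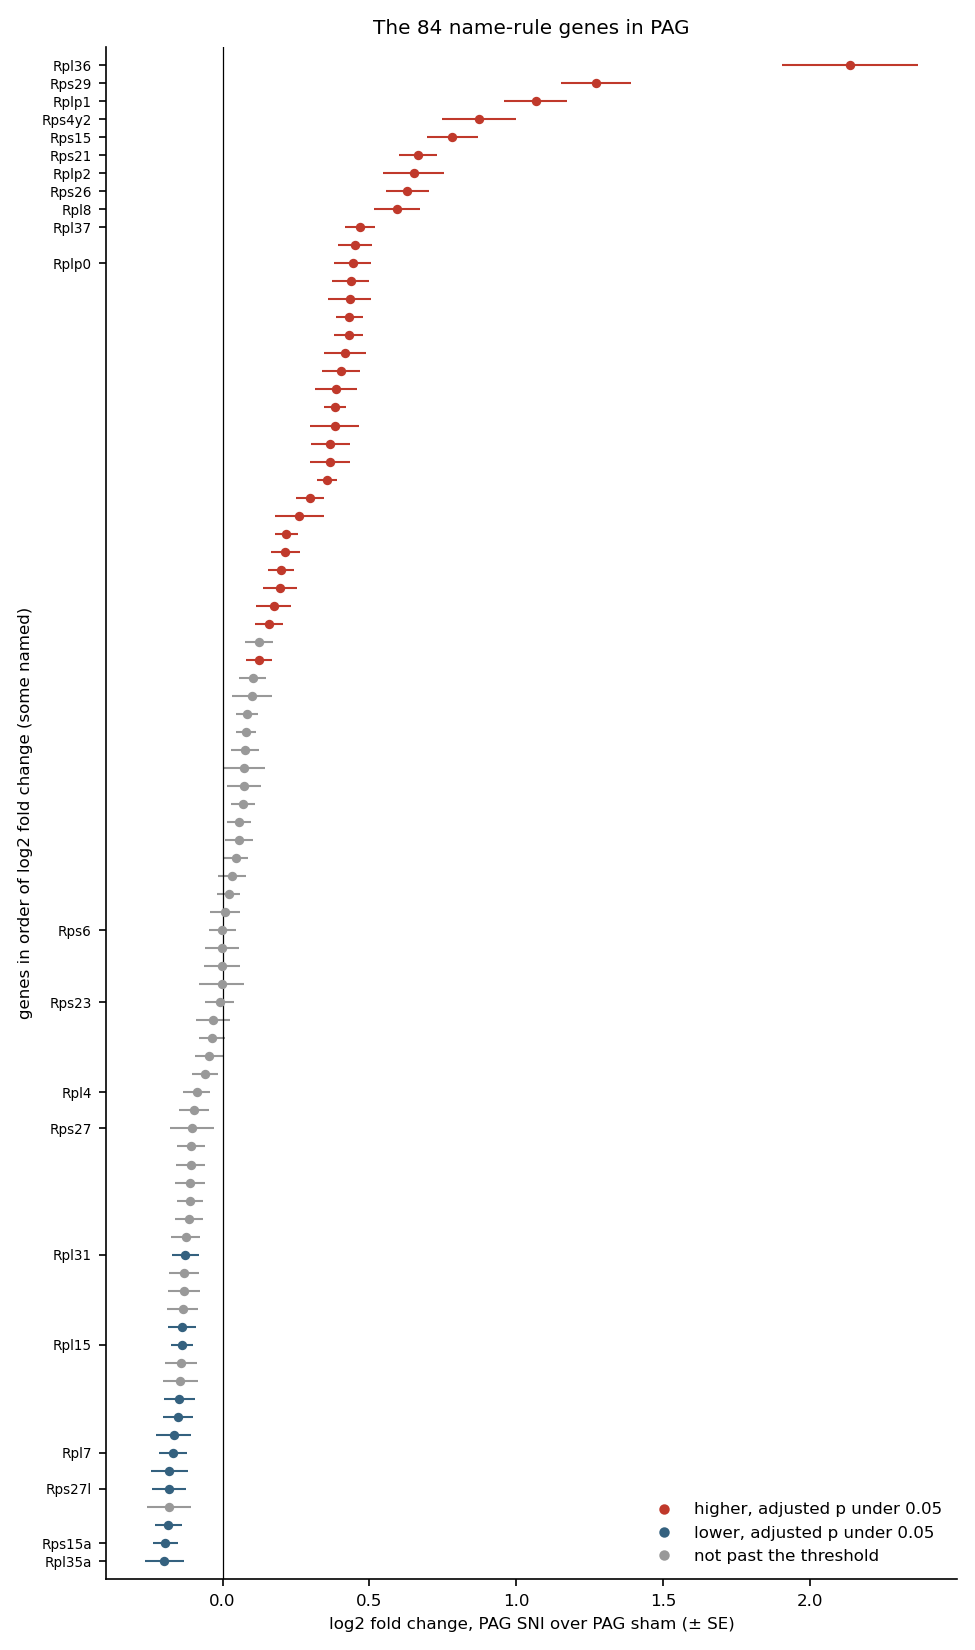
Log2 fold change of each of the 84 genes in PAG, SNI over sham, with its standard error (horizontal axis), ordered by value down the vertical axis with some genes named; red points were higher and blue points lower at an adjusted p under 0.05, and grey points did not pass. Rpl36 lies at 2.13 and Rps29 at 1.27 at the top, and the 12 genes that fell lie between -0.20 and -0.13.

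Rpl36, a protein of the large subunit, lies at chr17:56613416-56614243 on the plus strand (GRCm38, GENCODE M21). Its lowest, median and highest values were 28.4, 35.5 and 66.2 RPKM in PAG SNI libraries, against 4.18, 8.38 and 13.1 RPKM in PAG sham libraries. Every SNI library was above every sham library, and the library PAG SNI 36 stood well above the other SNI libraries. The fit gave a log2 fold change of 2.13 (SE 0.23, adjusted p = 5.91e-05), with means of 39.3 ± 13.5 RPKM in SNI and 8.67 ± 2.97 RPKM in sham libraries (SD, n = 6 each). These values rest on 410 to 779 reads per SNI library and 63 to 189 reads per sham library.

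Rps29, a small zinc-binding protein in the head of the small subunit (chr12:69157722-69159186, minus strand), had a lowest, median and highest value of 47.1, 51.7 and 70.8 RPKM in PAG SNI libraries, against 16.9, 21.9 and 28.7 RPKM in PAG sham libraries. The groups did not overlap, and PAG SNI 36 was again the highest. The log2 fold change was 1.27 (SE 0.12, adjusted p = 4.87e-05). Rplp1 is one of the acidic proteins of the P stalk, the arm of the large subunit that recruits elongation factors (chr9:61913284-61914542, minus strand). It had 164, 171 and 244 RPKM (lowest, median and highest) in PAG SNI libraries, against 67.3, 87.1 and 104 RPKM in PAG sham libraries, a log2 fold change of 1.07 (SE 0.11, adjusted p = 5.28e-05). Here too all SNI libraries lay above all sham libraries.

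**Figure D2:**
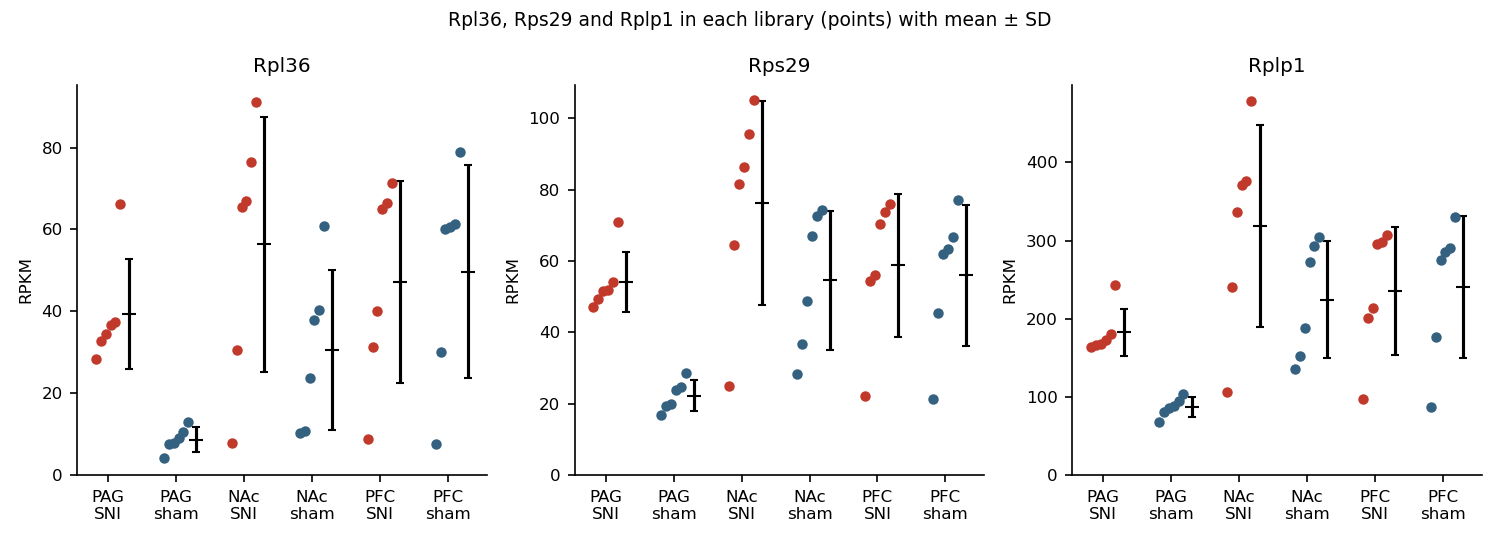
RPKM of Rpl36, Rps29 and Rplp1 (vertical axes, each from 0) in every library of the 6 groups; points are libraries in order of value, and the black mark with its bar is the mean ± SD of 6 libraries. The PAG SNI points lie above all PAG sham points for each gene, while NAc and PFC groups spread widely and overlap, for example 7.78 to 91.1 RPKM of Rpl36 in NAc SNI and 10.2 to 60.7 RPKM in NAc sham libraries.

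The remaining stalk proteins rose as well. Rplp2, the partner of Rplp1, had 11.3, 12.4 and 19.2 RPKM (lowest, median, highest) in PAG SNI libraries, against 7.11, 8.28 and 9.17 RPKM in PAG sham libraries, a log2 fold change of 0.65 (SE 0.10, adjusted p = 0.000371). Rplp0, which anchors the stalk to the ribosome, had 50.2, 52.6 and 56.6 RPKM in PAG SNI libraries, against 31.6, 39.3 and 44.2 RPKM in PAG sham libraries, a log2 fold change of 0.44 (SE 0.063, adjusted p = 0.000184). Neither gene's groups overlapped.

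In the small subunit, the larger rises after Rps29 were in Rps15, Rps21 and Rps26. Rps15, which sits in the head near the decoding site, had 223, 232 and 238 RPKM (lowest, median, highest) in PAG SNI libraries, against 101.0, 137 and 167 RPKM in PAG sham libraries (log2 fold change 0.78, SE 0.088). Rps21 had 107, 111 and 128 RPKM in PAG SNI libraries, against 60.5, 71.3 and 83.6 RPKM in PAG sham libraries (log2 fold change 0.67, SE 0.066). The SNI values of Rps15 lay close together, with an SD of 5.68 RPKM against 21.8 RPKM in sham libraries. Rps26, at the channel where the mRNA leaves, had 56.7, 59.7 and 77.3 RPKM in PAG SNI libraries, against 36.3, 39.2 and 44.6 RPKM in PAG sham libraries (log2 fold change 0.63, SE 0.073). No SNI library of these 3 genes fell within the range of the sham libraries, and their adjusted p-values were 6.23e-05, 4.99e-05 and 7.32e-05.

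Among large-subunit genes other than Rpl36 and the stalk, Rpl8 and Rpl37 were among the larger rises. Rpl8, close to the centre where peptide bonds form, had 227, 234 and 242 RPKM (lowest, median, highest) in PAG SNI libraries, against 121, 156 and 187 RPKM in PAG sham libraries (log2 fold change 0.59, SE 0.077, adjusted p = 0.00011). Rpl37, a zinc-binding protein, averaged 66.0 ± 1.62 RPKM in PAG SNI libraries and 47.7 ± 4.44 RPKM in PAG sham libraries (SD, n = 6 each; log2 fold change 0.47, SE 0.051, adjusted p = 5.92e-05). In both, all SNI libraries were above all sham libraries.

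The falls were small and none separated the surgeries. The largest were in Rpl35a, at a log2 fold change of -0.20 (SE 0.066), and in Rps15a, at -0.19 (SE 0.041). Rps15a, of the small-subunit platform, had 31.8, 35.2 and 38.4 RPKM (lowest, median, highest) in PAG SNI libraries, against 37.5, 40.6 and 41.7 RPKM in PAG sham libraries, so that the ranges met at their edges (adjusted p = 0.00273). Among the other genes that fell were Rpl7, Rps25, Rps4x, Rps24, Rpl15, Rpl36a and Rpl31, with the paralogs Rps27l and Rpl22l1, at log2 fold changes of -0.18 to -0.13. The number of falls depended on single libraries: it was 27 without PAG SNI 33, 4 without PAG sham 28, 29 or 30, 5 without PAG SNI 31, 35 or 36, and 6 without PAG SNI 32 or PAG sham 26 or 27. Of all genes, 19.4% were lower without PAG SNI 33, and 8.34% to 12.6% in the other fits just named. Rps15a, Rpl7 and Rpl15 passed in each of the 12 fits without 1 library, whereas Rpl22l1 and Rpl31 did not pass in 11 of them, Rps4x, Rps24 and Rps25 in 10, Rpl36a in 8, and Rpl35a and Rps27l in 5.

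The 6 smallest differences lay between -0.010 in Rps23 and 0.0089 in Rpl7l1. Rps6, the substrate of the S6 kinases, had 81.9, 86.0 and 99.6 RPKM (lowest, median, highest) in PAG SNI libraries, against 84.8, 87.7 and 89.8 RPKM in PAG sham libraries, with overlap throughout (log2 fold change -0.00041, SE 0.045, adjusted p = 0.994). Rps13 averaged 51.4 ± 4.71 RPKM in PAG SNI and 51.4 ± 2.90 RPKM in PAG sham libraries, and Rps23, a protein of the decoding centre, 90.4 ± 7.62 RPKM in PAG SNI and 90.8 ± 2.26 RPKM in PAG sham libraries (SD, n = 6 each). Rpl4, of the exit tunnel, was the most abundant gene of the set over all libraries, at 360 RPKM, and averaged 381 ± 29.5 RPKM in PAG SNI and 404 ± 7.12 RPKM in PAG sham libraries (adjusted p = 0.158). Level and fold change were unrelated in rank: Spearman's rank correlation between a gene's mean RPKM and its PAG log2 fold change was -0.016 across the 84 genes.

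The pyrimidine tract at the start of the gene was found in genes that rose and in genes that fell. RefSeq start regions (GRCm38.p6, 250 bases before to 50 after each start) matched 55 of the 75 genes by symbol. The tract was searched on the coding strand as a C followed by at least 4 further C or T, beginning within 10 bases of a start, with no other motif searched. It was found in 34 of the 55 genes (61.8%), and in 34.3% of the 26970 other genes with a RefSeq start. It was found in 13 of the 22 matched genes that rose in PAG, in 6 of the 8 that fell and in 15 of the 25 that did not pass. Of the 75 genes, 31 rose and 10 fell, so some of them could not be searched. Rpl36, Rps29 and Rplp1, which led the rises, were among the genes without a matched start. Sequences of 5 genes that rose and 3 that fell, from 30 bases before to 20 after the start, 5′ to 3′, are given to show the tract, in capitals, in both.
Rplp2 (rose, chr7:141447621-141447670, plus strand): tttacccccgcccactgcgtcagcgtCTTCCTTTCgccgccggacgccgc
Rps26 (rose, chr10:128626487-128626536, minus strand): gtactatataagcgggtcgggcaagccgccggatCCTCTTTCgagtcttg
Rps9 (rose, chr7:3704011-3704060, plus strand): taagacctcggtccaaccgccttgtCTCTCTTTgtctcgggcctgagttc
Rpl28 (rose, chr7:4792935-4792984, plus strand): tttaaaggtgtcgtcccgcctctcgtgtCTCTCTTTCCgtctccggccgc
Rpl18 (rose, chr7:45718041-45718090, plus strand): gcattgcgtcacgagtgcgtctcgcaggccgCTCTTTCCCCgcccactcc
Rps15a (fell, chr7:118116128-118116177, minus strand): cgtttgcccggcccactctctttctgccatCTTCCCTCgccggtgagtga
Rpl15 (fell, chr14:18270967-18271016, minus strand): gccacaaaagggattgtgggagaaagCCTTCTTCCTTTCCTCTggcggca
Rpl36a (fell, chrX:134585624-134585673, plus strand): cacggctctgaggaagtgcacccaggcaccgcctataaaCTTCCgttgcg
A match is a run of letters in this window and not a measured site.

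Gene length went with the PAG fold change only loosely. The lengths in the table ran from 255 to 7440 bases (median 1403) in the 84 genes, and 36 of them exceeded the mRNA by more than 2 times. Rps15a, for example, is 6262 bases in the table and 640 bases as an mRNA. Across the 84 genes Spearman's rank correlation between length and log2 fold change was -0.24, and over mRNA lengths, known for 81 genes, it was -0.16. Other protein coding genes of the same length range gave -0.080 over 11665 genes. By length, 5 of 10 genes under 600 bases, 11 of 21 of 600 to 1000 bases, 10 of 27 of 1000 to 2000 bases and 7 of 26 longer ones rose, with medians of 0.15, 0.13, 0.073 and 0.015 on the log2 scale. In these classes 1, 4, 3 and 4 genes fell. Of other protein coding genes in the same classes, 17.4%, 25.3%, 27% and 23.4% were higher and 7.74%, 7.07%, 9.23% and 16.2% were lower. The shortest gene, Rps27 at 255 bases, did not pass (log2 fold change -0.10, SE 0.075), while Rpl36 is 404 bases and Rps26 447 bases long. The longest were the row named Rpl24 (7440 bases, -0.11, not passed), Rps15a (fell) and Rps19 (4685 bases, which rose at 0.16).

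GC content went with it more closely. The rank correlation between the GC content of the mRNA and the PAG log2 fold change was 0.67 across 81 genes, and 0.77 across 13300 other protein coding genes. In straight-line fits the log2 fold change rose by 0.51 per 10% GC in the 81 genes and by 0.25 in the others. Of 15 genes under 48% GC, 1 rose and 6 fell; of 13 genes at 56% or more, 11 rose and 0 fell. The corresponding shares in other protein coding genes were 0.536% higher and 32.7% lower under 48%, and 75.1% higher and 0.242% lower at 56% or more. Of 28 genes at 48% to 52%, 4 rose and 4 fell, against 4.25% and 13.1% of other protein coding genes. Of 25 genes at 52% to 56%, 16 rose and 2 fell, against 30.5% and 2.31%. Rpl36 had the highest GC content of the set, 60.8%, and Rpl22l1 the lowest, 40.6%. Because Rpl36 also had the largest rise, it weighs heavily in the straight-line fit of the 81 genes. That fit was not repeated without it. With GC content held fixed in ranks, the rank correlation with length in the table was -0.21 and that with mRNA length -0.035. Within the GC classes the ribosomal protein genes had medians of -0.11, -0.035, 0.22 and 0.40 from low to high GC, against -0.11, -0.043, 0.077 and 0.29 in other protein coding genes. These are descriptions across genes, which share libraries and are not independent.

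**Figure D3:**
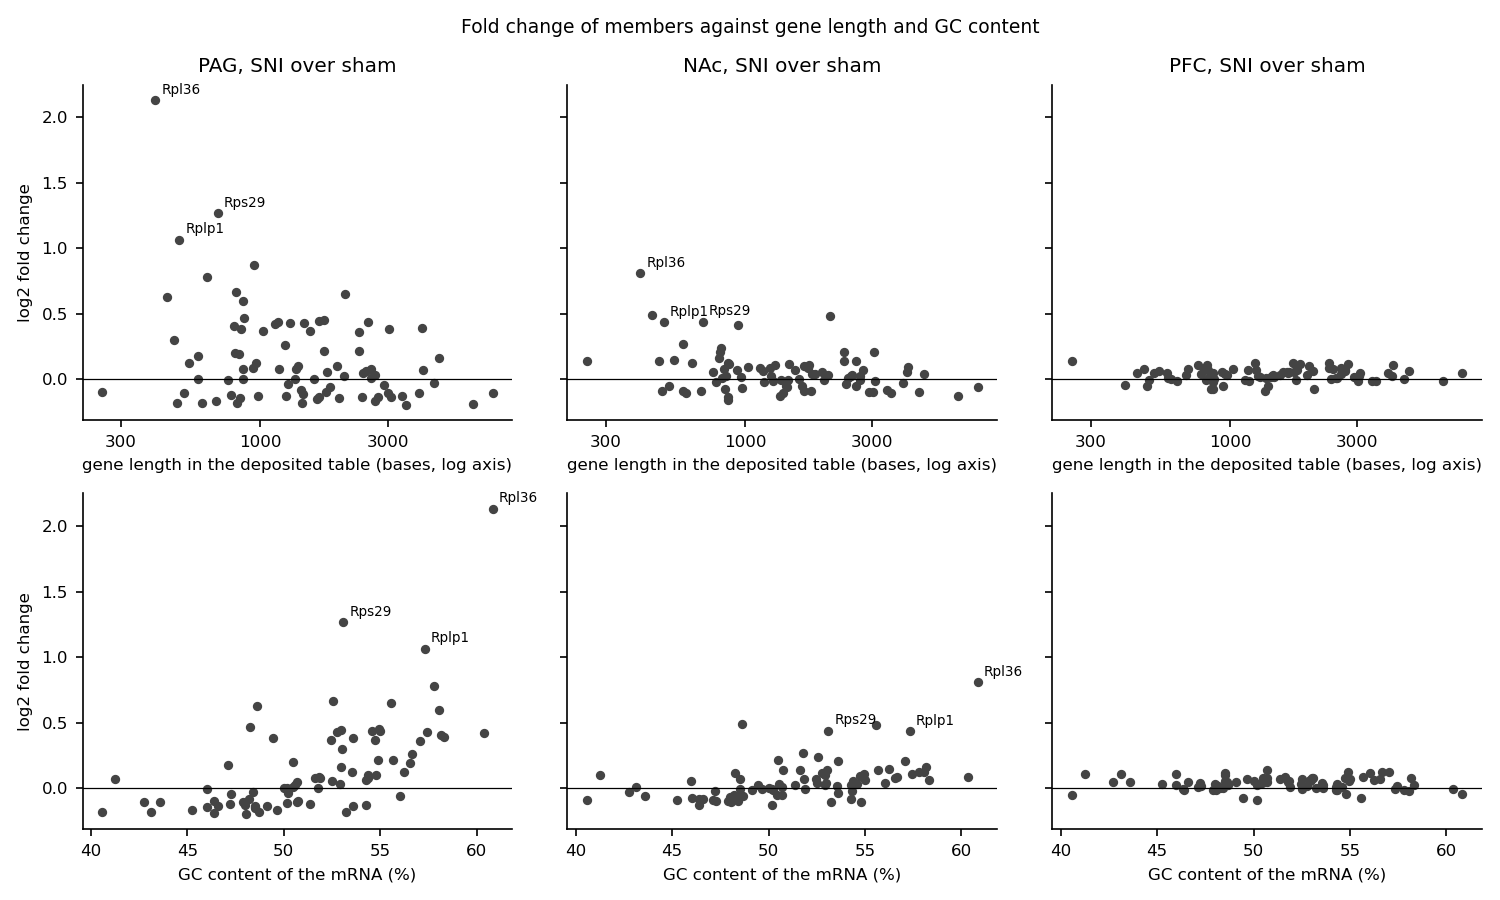
Log2 fold change of the 84 genes, SNI over sham (vertical axes), against gene length in bases (upper row, log axis) and GC content of the mRNA in percent (lower row, 81 genes), by region. The PAG points climb with GC content, by 0.51 per 10% GC in a straight-line fit (rank correlation 0.67). The NAc points climb less steeply, by 0.18 per 10% GC (rank correlation 0.58), and the PFC points stay near 0 (rank correlation 0.0030).

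Libraries of low and of high GC slope differed in the level of the leading genes, within surgeries as well as between them. Among sham libraries alone, Rpl36 was at 7.67 RPKM in PFC sham 13, whose slope was -0.262, and at 78.8 RPKM in PFC sham 18, whose slope was 0.117. In NAc SNI libraries it was at 7.78 RPKM in NAc SNI 7, with a slope of -0.200, and at 91.1 RPKM in NAc SNI 12, with a slope of 0.147. In PAG, SNI 36 had the highest slope, 0.218, with 66.2 RPKM of Rpl36, and sham 28 the lowest slope, -0.217, with 4.18 RPKM. That pair crosses the surgeries. Among PAG SNI libraries, PAG SNI 33 had the lowest slope, 0.0359, and the lowest Rpl36, 28.4 RPKM. The order was not strict. NAc SNI 10 had the highest NAc slope, 0.152, with 65.4 RPKM of Rpl36, less than NAc SNI 12. Rpl36 was at 32.8 RPKM in PAG SNI 31, with a slope of 0.132, and at 36.7 RPKM in PAG SNI 32, with a slope of 0.0935. No correlation across libraries was computed. Rps29 and Rplp1 were likewise lower in PFC sham 13, at 21.4 and 86.8 RPKM, than in PFC sham 18, at 77.1 and 331 RPKM.

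**Figure D4:**
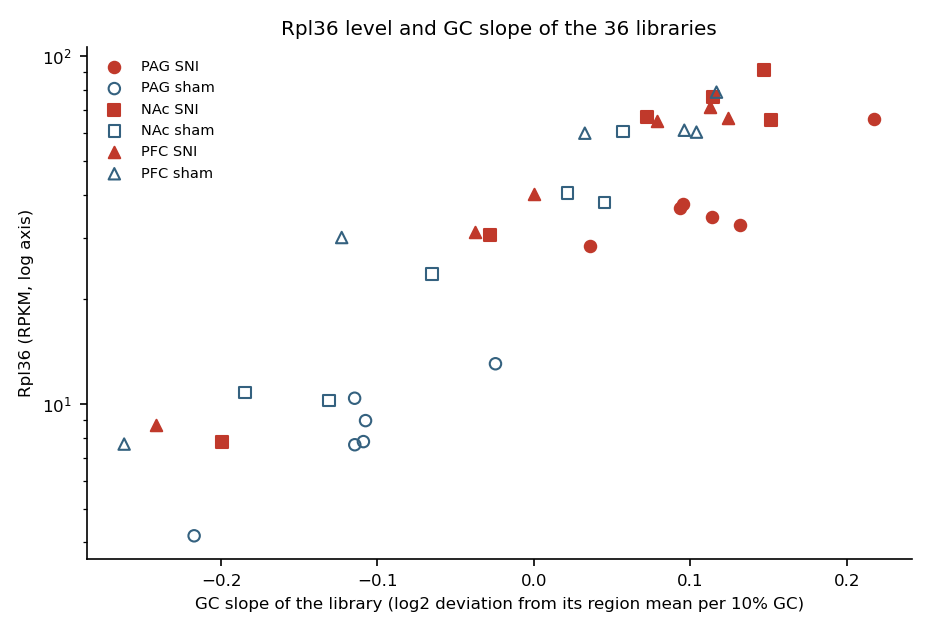
RPKM of Rpl36 (vertical log axis) against the GC slope of each of the 36 libraries (horizontal axis); filled red marks are SNI and open blue marks are sham libraries, with circles for PAG, squares for NAc and triangles for PFC. Within each region the library of lowest slope has the lowest Rpl36, at 4.18 RPKM in PAG sham 28, 7.78 RPKM in NAc SNI 7 and 7.67 RPKM in PFC sham 13, and in PAG all SNI libraries have positive and all sham libraries negative slopes.

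When the response of each gene to this slope, estimated within the groups of NAc and PFC, was subtracted from the PAG values (the library-axis correction), 0 of the 84 genes passed in PAG, and over all genes 17 were higher and 3 lower (limma; 15 of the 84 at an unadjusted p under 0.05, against 11.6% of all genes; lowest adjusted p = 0.167). Rpl36 then had a log2 fold change of 0.17, Rps29 0.19, Rps15 0.19 and Rplp1 -0.044, and the 84 genes ran from -0.29 in Rplp2 to 0.19 in Rps29. With the slope as a covariate in the PAG fit, 0 of the 84 passed, as did 0 of all genes (limma; 12 of the 84 at an unadjusted p under 0.05, against 8.81% of all genes; lowest adjusted p = 0.512). All 84 values were then above 0, from 0.0023 to 0.50, against 60.2% of all genes, and the median standard error was 0.10, against 0.051 without it. Because the slopes of PAG SNI and PAG sham libraries do not overlap, surgery and slope cannot be told apart in this region. Taking out each library's smooth trend on GC content alone left 29 higher and 8 lower (7.77% and 5.90% of all genes), with Rpl36 at 1.70. Taking out the trend on length left 32 higher and 26 lower (20.3% and 20.2% of all genes).

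**Figure D5:**
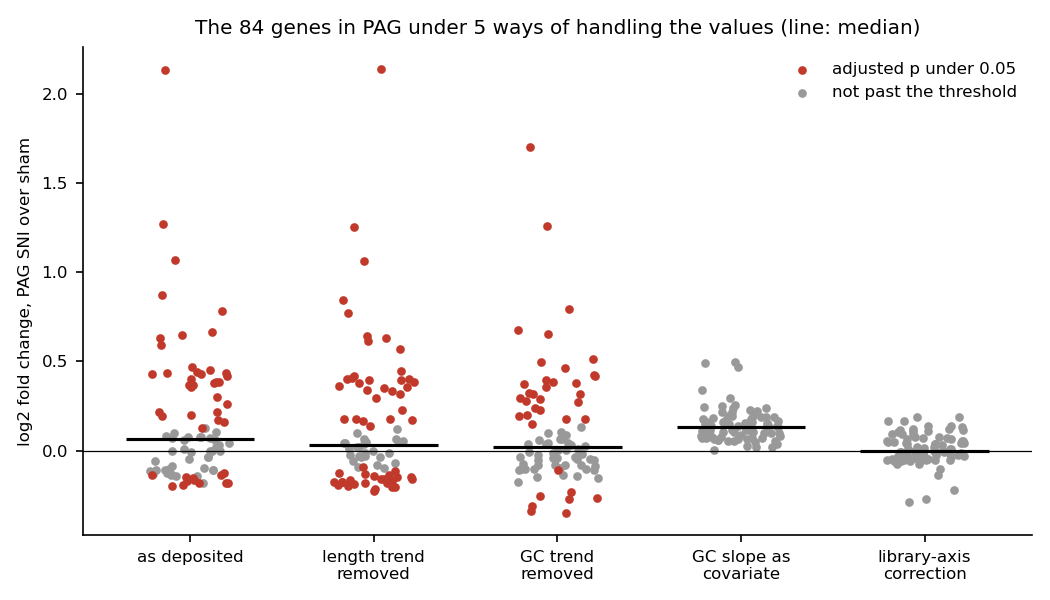
Log2 fold change of the 84 genes in PAG, SNI over sham (vertical axis), as deposited, after removal of each library's trend on length or on GC content, with the GC slope of the library as a covariate, and after removal of the response to that slope seen in NAc and PFC. Red points passed an adjusted p of 0.05, grey points did not, and the line is the median: 33 rose and 12 fell as deposited, and 0 passed with the covariate or the library-axis correction.

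Markers of other cells also moved in PAG. Of 3 microglial genes, C1qa rose (log2 fold change 0.79, SE 0.12, adjusted p = 0.000249), and Csf1r and Cx3cr1 did not pass; the sum of the 3 was 38.3 to 49.9 RPKM in PAG SNI and 31.8 to 36.2 RPKM in PAG sham libraries. Of 3 astrocyte genes, Aldh1l1 and Gfap rose and Aqp4 fell, with sums of 88.5 to 102 RPKM in PAG SNI and 94.4 to 106 RPKM in PAG sham libraries. Of 4 oligodendrocyte genes, Mbp rose, with sums of 1013 to 1399 RPKM in PAG SNI and 971 to 1138 RPKM in PAG sham libraries. Of 2 endothelial genes, Cldn5 rose (0.45, SE 0.063, adjusted p = 0.00016) and Flt1 did not pass, with sums of 17.9 to 24.2 RPKM in PAG SNI and 15.7 to 18.7 RPKM in PAG sham libraries. Of 3 red cell genes, Hba-a1 rose (0.74, adjusted p = 0.0112), with sums of 15.1 to 23.4 RPKM in PAG SNI and 11.3 to 23.1 RPKM in PAG sham libraries. Of 3 genes of fibroblasts and meninges, Col1a1 rose (0.24, adjusted p = 0.0113), with sums of 8.14 to 10.8 RPKM in PAG SNI and 9.02 to 10.8 RPKM in PAG sham libraries. Of the 3 midbrain genes, whose sums are given above, Gata3 rose (0.35, adjusted p = 0.00136). Choroid plexus markers, of which 0 of 3 passed (limma; 0 at an unadjusted p under 0.05), summed to 3.04 to 315 RPKM in PAG SNI and 2.48 to 762 RPKM in PAG sham libraries. Of 3 neuronal genes, Rbfox3 rose and Syt1 fell, with sums of 419 to 459 RPKM in PAG SNI and 420.5 to 464 RPKM in PAG sham libraries. The library-axis correction given above left C1qa at 0.16, Mbp at 0.071, Hba-a1 at 0.18, Aldh1l1 at 0.048 and Gfap at 0.046. Gata3 was then at 0.36, Cldn5 at -0.20, Col1a1 at -0.19 and Rbfox3 at -0.080. Aqp4 and Syt1, which fell as deposited, were then at -0.013 and -0.016. The part of these cells in the ribosomal protein values was not tested.

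Of the paralogs and copies, Rps4y2, a copy of the Rps4 gene, had 8.54, 9.94 and 12.7 RPKM (lowest, median, highest) in PAG SNI libraries, against 3.75, 5.34 and 7.43 RPKM in PAG sham libraries, without overlap (log2 fold change 0.87, SE 0.13, adjusted p = 0.000212). Its X-linked relative Rps4x fell, at -0.15 (SE 0.051). Rpl22l1, the paralog of Rpl22, averaged 99.2 ± 12.03 RPKM in PAG SNI and 112 ± 2.82 RPKM in PAG sham libraries, and Rps27l 9.56 ± 0.984 RPKM in PAG SNI and 10.9 ± 0.498 RPKM in PAG sham libraries (SD, n = 6 each; adjusted p = 0.0387 and 0.0253). Rpl7l1, Rpl36al, Rps3a2 and Rps3a3 did not pass, at 0.0089, -0.0025, 0.074 and -0.0030 on the log2 scale. Reads of such near-identical copies may be divided among loci by the authors' counting.

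In NAc, 0 of the 84 genes passed, as did 0% of the 15264 genes tested (limma; 4 of the 84, 4.76%, at an unadjusted p under 0.05, against 4.32% of all genes). In 0 of the 84 was every SNI library above every sham library, against 0.0131% of all genes, or below, against 0.118%. The median log2 fold change was 0.026 over the set and -0.025 over all genes, and that of the set ran from 0.0044 without NAc SNI 9 to 0.061 without NAc SNI 7. Rpl36 had 7.78, 66.2 and 91.1 RPKM (lowest, median, highest) in NAc SNI libraries, against 10.2, 30.8 and 60.7 RPKM in NAc sham libraries, a log2 fold change of 0.81 whose SE was 0.60 (adjusted p = 0.780). Rps13 had the smallest p among positive changes, with 50.9, 60.0 and 77.2 RPKM in NAc SNI and 44.6, 50.5 and 61.3 RPKM in NAc sham libraries (0.27, SE 0.096, unadjusted p = 0.0159, adjusted p = 0.780 by limma). Rps15a (-0.13, SE 0.053), Rps3a2 (-0.16, SE 0.066) and Rpl36al (-0.13, SE 0.055) were next, with the same adjusted p. The other positive changes of smallest p were Rpl38 at 0.14, Rps26 at 0.49 and Rps16 at 0.21. The rank correlation of the log2 fold change was 0.58 with GC content and -0.26 with length. Across the 84 genes the PAG and NAc fold changes had a rank correlation of 0.75, and the PAG and PFC fold changes one of -0.070. Neither pair shares a library, but the labels do not say whether regions share mice. In PAG, as in NAc, the fold change went with GC content, at a rank correlation of 0.67. Mean GC slopes were 0.115 in PAG SNI, -0.115 in PAG sham, 0.0430 in NAc SNI and -0.0430 in NAc sham libraries. The correlations between regions over all genes are not given here.

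In PFC, 0 of the 84 passed, as did 0% of 15192 genes (limma; 0 of the 84 at an unadjusted p under 0.05, against 1.45% of all genes). The median log2 fold change was 0.037 over the set and 0.0030 over all genes. Without PFC sham 13 that of the set was 0.0081, and without PFC SNI 19 it was 0.063. The set ran from -0.095 in Rpl36al to 0.13 in Rps27. Rps23 averaged 83.9 ± 6.15 RPKM in PFC SNI and 78.0 ± 5.92 RPKM in PFC sham libraries (SD, n = 6 each), the smallest p among positive changes (0.11, SE 0.061). Rpl27a was at 0.11 and Rpl6 at 0.079, with Rpl36al, Rpl23a, Rps3a3 and Rps14 between -0.095 and -0.050 on the other side. Of the 84 values 62 were above 0, against 52% of all genes. Rpl36 had 8.69, 52.6 and 71.4 RPKM (lowest, median, highest) in PFC SNI libraries, against 7.67, 60.3 and 78.8 RPKM in PFC sham libraries, with overlap throughout.

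The difference between regions was tested directly, as an interaction in 1 limma model of the 36 libraries, and 0 of the 84 genes passed in any pair of regions, as did 0% of 15639 genes. At an unadjusted p under 0.05 there were 13 genes for PAG against NAc (8.98% of all genes), 32 for PAG against PFC (17.8% of all) and 1 for NAc against PFC (1.14% of all). Rps15 had a larger change in PAG than in PFC by 0.80 (SE 0.26, adjusted p = 0.212 by limma), and Rpl36 by 2.18 (SE 0.78, adjusted p = 0.215). The PAG effect of Rpl36 exceeded that in NAc by 1.33 (SE 0.78, adjusted p = 0.608). Without PFC sham 13, 16 genes of the set had a larger change in PAG than in PFC at an adjusted p under 0.05, as did 6.52% of all genes. The model takes 1 spread per gene from all 6 groups, so for Rpl36 the wide spread in NAc and PFC also stands for PAG. The comparisons of sham groups below use the same model. With all libraries and that shared spread, the PAG rises were not shown to differ from the changes in the other regions.

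Between sham groups, ribosomal protein genes were mostly higher in NAc than in PFC. In the 36-library model, 55 of the 84 were higher in NAc sham than in PFC sham (36.7% of all genes) and 0 were lower (22.3% of all genes), with 1, Rpl30, higher in NAc by at least 1.5-fold (8.04% of all genes; 0 higher in PFC, 8.14% of all; log2 fold change 0.59, SE 0.069, adjusted p = 6.4e-09). Rpl31 and Rps19 followed at 0.58 and 0.53, and the median was 0.25 over the 84 genes and 0.071 over all genes. Between NAc sham and PAG sham, 31 were higher in NAc (32.9% of all genes) and 23 in PAG (38.1% of all), with 8 and 1 of them by at least 1.5-fold (13.5% and 14.2% of all genes). The largest NAc excess was in Rpl36, at 1.55 (SE 0.55, adjusted p = 0.0124), then Rplp1 at 1.31 and Rps29 at 1.21, and the largest PAG excess in Rps15a, at -0.83 (SE 0.057). Between PFC sham and PAG sham, 12 were higher in PFC (31% of all genes) and 46 in PAG (45.1% of all), with 7 and 8 by at least 1.5-fold (14.9% and 17.8% of all genes). Rpl36 was higher in PFC by 2.22 (SE 0.55, adjusted p = 0.000514) and Rplp1 by 1.35, while Rpl22l1, at -0.97 (SE 0.079), and Rps15a, at -0.82, were higher in PAG. These comparisons use the PAG sham libraries, whose GC slopes all lay below those of the PAG SNI libraries. Mean Rpl36 was 8.67 RPKM in PAG sham and 39.3 RPKM in PAG SNI libraries, against 30.6 RPKM in NAc sham and 49.7 RPKM in PFC sham libraries. PAG SNI was not tested against the sham groups of other regions. GC slopes are taken relative to each region's own mean and are not compared between regions. Region and any processing batch cannot be told apart.

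Fau, Gnb2l1 and Rpsa, ribosomal protein genes that the name rule misses, rose in PAG. Fau, whose product includes the small-subunit protein eS30, had 59.8 to 77.8 RPKM in PAG SNI libraries and 35.8 to 46.1 RPKM in PAG sham libraries (log2 fold change 0.66, SE 0.067, adjusted p = 5.44e-05). Gnb2l1, the older symbol of Rack1, a small-subunit scaffold protein, rose at 0.20 (SE 0.033, adjusted p = 0.000413), as did Rpsa, another protein of the small subunit, at 0.15 (SE 0.033, adjusted p = 0.00459). After the library-axis correction the values were -0.14 for Fau, -0.013 for Gnb2l1 and 0.0038 for Rpsa.

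The other lists of the translation machinery are to be read against the 21.5% of all genes that were higher in PAG and the 13.7% that were lower. The genes named here are among the 4 of smallest p in each list, all of which rose. Of 48 translation factors, 9 rose and 16 fell; Eef2, the factor that moves the ribosome along the mRNA, had 390 to 536 RPKM in PAG SNI and 279 to 374 RPKM in PAG sham libraries (log2 fold change 0.47, SE 0.075, adjusted p = 0.000419). Of 50 ribosome biogenesis genes, 12 rose and 12 fell, led by Fbll1, a relative of the rRNA methylase fibrillarin, at 1.45 (SE 0.17, adjusted p = 7.87e-05), with 7.10 to 13.2 RPKM in PAG SNI and 1.66 to 4.14 RPKM in PAG sham libraries. Of 74 mitochondrial ribosomal protein genes, 18 rose and 10 fell, shares near those of all genes, with Mrpl14 at 0.51 (SE 0.053) and Mrps11 at 0.50 (SE 0.071). Of 20 genes of the TOR pathway and TOP mRNA regulation, 5 rose and 6 fell; Akt1s1, which encodes an inhibitory partner of TOR complex 1, rose at 0.41 (SE 0.059, adjusted p = 0.000186), and Eif4ebp1, a translation repressor that TOR phosphorylates, at 0.51 (SE 0.15, adjusted p = 0.0153). The medians were -0.062 for translation factors, -0.014 for biogenesis genes, 0.0042 for mitochondrial ribosomal proteins and -0.049 for the TOR list, against 0.064 for the cytosolic ribosomal protein genes. In every one of these lists the rank correlation between GC content and the PAG log2 fold change was positive, from 0.72 in the mitochondrial ribosomal proteins to 0.91 in the translation factors. In NAc and PFC, 0 genes of these lists passed (limma).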

How the data were processed

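RPKM, reads scaled to gene length and library depth, is the unit in which the authors deposited 1 table for 36 libraries; the submitters' processing notes name TopHat2, HTSeq and the mm10 build, without their roles, and the strand setting is not given in the sources used here. Multiplying the deposited RPKM by gene length and depth gave whole reads within 0.001 in 100% of values, so depth was recovered. Genes averaging 0.5 RPKM or more in a region's 12 libraries were tested on log2(RPKM + 0.5) with limma (3.58.1, R 4.3.3), two-sided, with a mean-variance trend and Benjamini-Hochberg adjustment over all genes tested; fold changes are on that scale and understate changes of low genes. Python 3.11.15 handled the tables. Transcript lengths, GC content and positions came from GENCODE M21 (97.9% of identifiers matched). The fit was tested on simulated data in which genes varied independently and libraries had no trend on GC content. That test cannot show how the fit behaves where libraries differ in GC slope.

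Members and lists were chosen with earlier results of these data known. Named genes were the markers Rpl36, Rps29 and Rplp1, the paralogs and other matches, the 3 shortest and 3 longest members, the 12 largest rises, all falls and the 6 smallest changes in PAG, the 4 smallest p-values per direction in NAc and PFC and per region difference, the 4 largest folds between sham groups, the 5 highest and 5 lowest means, and up to 4 genes per related list; Rpl28, Rps9 and Rpl18 were shown for their start sequences, chosen after their values were seen, as were the library pair left out together and the set of 75. Some genes that the rule names are not reported here. Alternatives were other pseudocounts, filters and scalings, voom on recovered reads, 1 model of all libraries, GC and length corrections and leaving out each library.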

Additional observations from a re-analysis of the deposited data

Results flagged for a closer look

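In 16 of 138 groups of 6 libraries checked, over 23 measures, 1 library lay farther from the nearest of the others than Dixon's 95% criterion allows; chance flags about 1 in 20 such groups, and genes of 1 library are not independent. PAG SNI 36, the PAG library of highest GC slope, was the highest for 6 genes: 66.2 RPKM of Rpl36, 70.8 of Rps29, 244 of Rplp1, 128 of Rps21, 19.2 of Rplp2 and 77.3 of Rps26. NAc SNI 7, the NAc library of lowest slope, was the lowest for Rps15 at 130.2 RPKM, Rpl8 at 124 and Rpl37 at 46.5. PFC sham 13, the PFC library of lowest slope, was the lowest for Rps15 at 127, Rps21 at 64.1 and Rpl37 at 41.3. PAG sham 28, the PAG library of lowest slope, was the highest for Rps4x, at 135 RPKM. The other flags were PAG SNI 33, highest for Rps27l at 11.4 RPKM, PAG sham 25, lowest for Rps15a at 37.5, and NAc sham 1, highest for Rpl22l1 at 98.9.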

How the results depend on the processing

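No paired analysis was possible because the libraries are numbered 1 to 36 and no number is shared between groups. As deposited, 33 genes rose and 12 fell in PAG. The numbers that fell are given with the share of all genes lower in the same fit, which was 13.7% as deposited. They were 3 in 1 model of all 36 libraries (6.14%), 4 with no filter (5.24%) and 19 with median-of-ratios scaling (16.5%). They were 25 with quantile scaling (25.8%) and 26 with the length trend removed (20.2%). Without PAG SNI 36 and PAG sham 28 together, a pair chosen after seeing the data, 2 fell. For that pair the share of all genes is not given here. With the GC slope as a covariate and with the library-axis correction, 0 rose and 0 fell. Leaving out each library, 30 to 34 rose and 4 to 27 fell. Over all genes, 18.8% to 22.4% were then higher and 8.34% to 19.4% lower. Voom on recovered reads called 34 of the 84 higher and 14 lower, and 3392 higher and 2267 lower over all genes. The rank correlation with length in PAG was -0.066 with the GC trend removed and -0.085 with the library-axis correction; in NAc it was -0.0011 with the GC slope as a covariate. Leaving out each library, the rank correlation in PFC ran from -0.22 to 0.27, with -0.22 without PFC SNI 19 and 0.27 without PFC sham 13, the number of genes with a larger change in PAG than in PFC from 0 to 16, the last without PFC sham 13, and the genes at least 1.5-fold higher in NAc sham than in PFC sham from 0 (without NAc sham 1, 3 or 4 or PFC sham 13, 16 or 17) to 2 (without NAc sham 2, 5 or 6 or PFC sham 15 or 18); that number, 1 as deposited, was 0 with median-of-ratios scaling or a pseudocount of 1. Single genes changed sign with the library-axis correction (Rplp1 -0.044, Rps4y2 -0.060, Rps26 -0.27, Rplp2 -0.29), with the GC trend removed (Rps19bp1 -0.038), and with the GC slope as a covariate (Rps27l 0.084, Rpl22l1 0.10, Rps15a 0.055, Rps25 0.14, Rpl15 0.021, Rps24 0.13, Rps4x 0.12, Rpl7 0.065, Rpl35a 0.11, Rpl31 0.075, Rpl36a 0.068). For the scalings, filter and single model the cause was not tested. The other summary counts, medians and relations, 770 values, kept within 1.5 times or within their spread between libraries. Depth limits the lowest genes most: Rps3a3 rests on 68 to 177 reads per library.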
